A study of Mus musculus with 24 samples.

Results

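The genes described are the matrix metalloproteinases (Mmp), the tissue inhibitors of metalloproteinases (Timp), the ADAMTS proteases (Adamts), the ADAMTS-like proteins (Adamtsl) and the lysyl oxidases (Lox and Loxl) in inguinal white fat, which lies under the skin of the mouse groin. They were picked by gene symbol, but these families were chosen with earlier results of these data known. Shares of members set against shares of all genes are therefore not from a blind choice. Of the 16233 genes deposited, 48 qualified: 17 Mmp, 4 Timp, 17 Adamts, 5 Adamtsl and 5 Lox family genes. RNA was sequenced from male C57BL6 mice that were 10 to 11 weeks old at the exercise intervention. ZT counts hours from lights on, so ZT15 lies early in the dark, active phase and ZT3 early in the light, rest phase. The 4 groups of 6 libraries were ZT15 RUN (a 1 hour exercise bout under red light in the dark), ZT15 SED (a sham hour on an artificial treadmill), ZT3 RUN (the same bout with lights on) and ZT3 SED (the sham hour). No group carries a mutation or a drug by the labels. The labels give ZT as the time of sampling and do not give the hour after the bout for these libraries and do not state whether mice were pooled, so every p-value measures the spread between these libraries.

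Metalloproteinases and ADAMTS proteases are zinc enzymes that act outside the cell or at its surface. They are made as inactive precursors, cut collagens, proteoglycans and glycoproteins, and are blocked by TIMPs. ADAMTS-like proteins share the accessory domains of ADAMTS enzymes but lack the catalytic domain, and lysyl oxidases start the covalent crosslinks that stiffen collagen and elastin. In fat, this machinery reshapes the matrix around adipocytes and vessels when the depot grows or shrinks.

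Promoter sequence is shown for 3 of the members whose RNA changed, one for each kind of change described below: Adamts1 (higher after exercise at ZT15), Mmp14 (lower at ZT15 than at ZT3 in sedentary mice) and Timp3 (higher at ZT15 than at ZT3 in exercised mice). Promoter sequence entries from RefSeq on build GRCm38.p6 were available, matched by symbol, for 30 of the 48 members, including 5 of the 7 that passed a test in some comparison. Each sequence is the 250 bases before the annotated start, read 5′ to 3′ on the gene's strand, at chr16:85803114-85803363, minus strand (Adamts1), chr14:54431348-54431597, plus strand (Mmp14) and chr10:86300162-86300411, plus strand (Timp3). Capitals mark a GC box (GGGCGG, or CCGCCC on the other strand) or a TATA box (TATAAA).
Adamts1: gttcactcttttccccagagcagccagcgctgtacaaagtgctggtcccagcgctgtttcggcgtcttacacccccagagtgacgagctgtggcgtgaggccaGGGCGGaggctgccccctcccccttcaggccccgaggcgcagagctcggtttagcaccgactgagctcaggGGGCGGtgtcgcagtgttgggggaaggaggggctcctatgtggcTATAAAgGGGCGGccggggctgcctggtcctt
Mmp14: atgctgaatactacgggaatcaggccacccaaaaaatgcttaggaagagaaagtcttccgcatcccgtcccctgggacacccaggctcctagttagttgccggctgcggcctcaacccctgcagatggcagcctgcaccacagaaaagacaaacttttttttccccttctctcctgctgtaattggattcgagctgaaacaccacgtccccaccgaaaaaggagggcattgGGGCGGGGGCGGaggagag
Timp3: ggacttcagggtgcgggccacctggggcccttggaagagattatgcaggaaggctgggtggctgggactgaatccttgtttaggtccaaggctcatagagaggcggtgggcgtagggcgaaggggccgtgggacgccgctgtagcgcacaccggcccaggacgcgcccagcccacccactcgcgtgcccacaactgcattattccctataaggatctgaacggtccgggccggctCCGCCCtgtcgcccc
The Adamts1 window held 3 GC boxes and a TATA box that begins 32 bases before the start. Mmp14 held 2 GC boxes and Timp3 held 1. Adamts14 held 6 and Adamts12 held none, which completes the 5 windows. Over 27025 promoter windows of this length, 32.9% hold a GC box and 13% a TATA box on either strand, and a GC box may overlap its neighbour. Searched on both strands were also AP-1 (TGANTCA, in 6.87% of all windows), CRE (TGACGTCA, 1.62%), E-box (CACGTG, 6.05%), D-box (TTANNTAA, 5.55%) and the RORE half-site (AGGTCA, 13.8%), and these letters were in none of the 5 windows.

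The libraries held 18.5 M to 34.7 M recovered reads in the listed genes (median 29.2 M), so 1 read corresponded to a deposited value of 0.0278 to 0.0601. All 10 adipocyte markers were present in every library, and their summed value ranged from 13713 to 40237. ZT3 RUN replicate 4 and ZT15 SED replicates 5 and 3 stood apart by Cd79a, a B cell receptor gene, at 99.2, 54.6 and 14.1, against at most 1.33 in the other 21. ZT15 RUN replicates 1 and 6 and ZT15 SED replicate 1 stood apart by Ucp1, the uncoupling protein of thermogenic fat, at 532, 526 and 208, against at most 73.8 elsewhere. The same 3 libraries were also highest in Myh4, a skeletal muscle myosin gene, at 8995, 22113 and 18297, against at most 8207 elsewhere. Fits without these Ucp1-high libraries therefore cannot tell thermogenic fat and muscle content apart. The 2 libraries of highest Cd79a were also those in which most members were at the bottom of their group. In ZT15 SED replicate 5, 26 of the 48 members (54.2%) had the lowest value of their group, against 31.2% of all genes, and in ZT3 RUN replicate 4 the count was again 26 (54.2%), against 35.2% of all genes. Next came ZT15 RUN replicate 6, which is low in Cd79a (0.307) and high in Ucp1. There 20 members (41.7%) were lowest of their group, against 23.3% of all genes. Other libraries, not high in Cd79a or Ucp1, held many members at the top of their group. In ZT15 RUN replicate 2 and ZT3 SED replicate 4 these were 20 each (41.7%), against 22.8% and 16.3% of all genes. In ZT15 SED replicate 2 and ZT3 RUN replicate 2 they were 17 each (35.4%), against 10.4% and 11.1%. The part of cell content in these counts was not tested.

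Members covered a wide range of levels, and every one of the 48 was above 0 in every library. Deposited values ran from 0.0348 to 609.9. The mean over 24 libraries was above 100 for 9 members and under 1 for 7, and 24 of the 48 were above the table's median of 16.1. Divided by exon length, so that genes can be set beside one another, the inhibitor Timp2 was highest with 86.1 per kilobase. Mmp2, the gelatinase that TIMP2 helps to activate and also inhibits, followed with 67.2 per kilobase, and then Mmp3 (stromelysin-1) with 44.2, Timp3 with 39.0, Lox with 27.0 and the aggrecanase Adamts5 with 23.3. Neighbours in this order overlapped over the libraries: Timp2 ranged from 24.2 to 156.6 per kilobase and Mmp2 from 19.6 to 112.3. At the bottom stood Mmp16 with 0.0717, Adamts18 with 0.0724 and Adamts8 with 0.0986 per kilobase.

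A pair of ADAMTS proteoglycanases rose with exercise at ZT15. Adamts1, which cuts versican and aggrecan, had a lowest, median and highest deposited value of 73.6, 122 and 163 in ZT15 RUN, against 39.9, 55.6 and 63.4 in ZT15 SED. Every exercised library was above every sedentary one. The group means were 119.6 ± 29.2 in ZT15 RUN and 54.0 ± 8.83 in ZT15 SED (SD, n = 6 each), a log2 change of 1.11 ± 0.21 (SE, limma adjusted p = 0.0170). Adamts4, an aggrecanase of the same subfamily, had 4.03, 5.74 and 12.1 in ZT15 RUN, against 2.05, 2.30 and 3.53 in ZT15 SED. The groups again did not overlap, although 1 exercised library, replicate 5, lay far above the other 5. The log2 change was 1.04 ± 0.23 (limma adjusted p = 0.0374). In bulk tissue, more cells of a type and more RNA per cell cannot be told apart.

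These 2 members were the only ones to pass the test at ZT15, 2 of 48, where 0.641% of all genes passed and 0.481% passed as higher. Adamts9, a versican-cutting relative, stood just outside: its lowest, median and highest values were 138.4, 230.1 and 368 in ZT15 RUN, against 86.5, 114 and 141 in ZT15 SED (log2 change 0.98 ± 0.24, adjusted p = 0.0519). The groups overlapped by the lowest exercised library. Timp3, a matrix-bound inhibitor known to block aggrecanases as well as metalloproteinases, had 362, 470.1 and 548 in ZT15 RUN, against 209.8, 330.2 and 351 in ZT15 SED. No value was shared between the groups, yet its log2 change of 0.57 ± 0.17 did not pass (adjusted p = 0.125). In all, 3 members were higher without overlap and none was lower without overlap, against 1.00% and 0.745% of all genes.

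**Figure D1:**
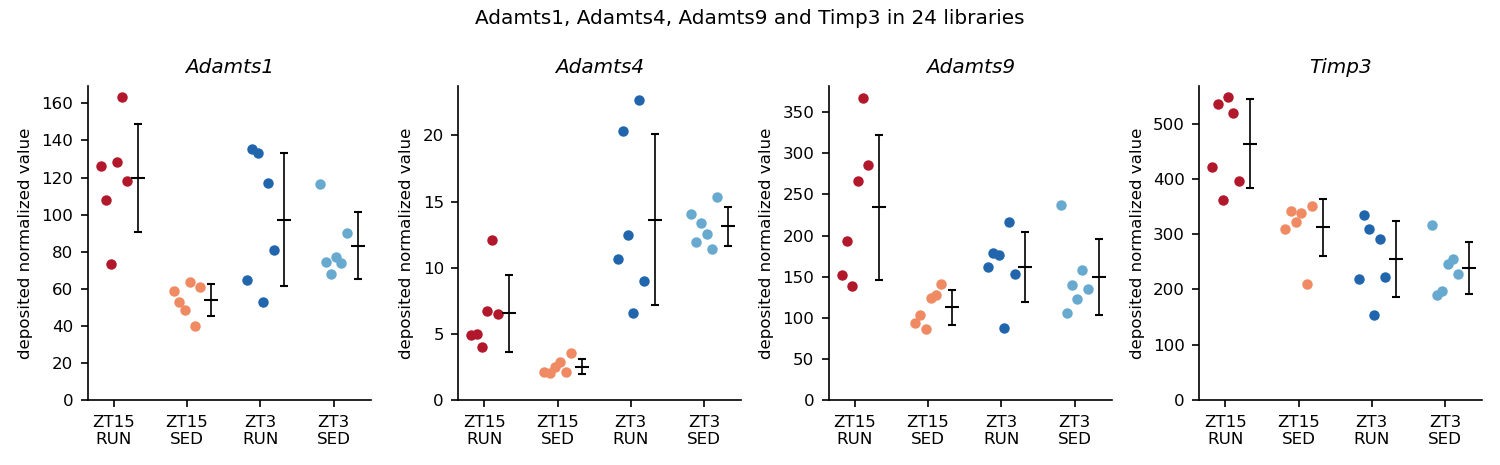
Deposited normalized values (vertical axis) of Adamts1, Adamts4, Adamts9 and Timp3 in each of 24 libraries (points) by group, with the group mean and SD (bars). The ZT15 RUN points of Adamts1, Adamts4 and Timp3 lie above all ZT15 SED points, and Adamts4 is lower in both ZT15 groups than in ZT3 SED apart from 1 ZT15 RUN library at 12.1.

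The rest of the family was mostly above 0 at ZT15 without passing. Of the 17 Adamts genes 12 had a log2 change above 0, with a family median of 0.13, and 6 had an unadjusted p under 0.05, all of them higher. Besides Adamts1, Adamts4 and Adamts9 these were Adamts15 (0.67 ± 0.28, adjusted p = 0.322), Adamts20 (0.66 ± 0.29, adjusted p = 0.340) and Adamts12 (0.41 ± 0.19, adjusted p = 0.379), the first and the second chosen for mention after their values were seen. All 5 Adamtsl genes were above 0, between 0.22 and 0.46, as were 4 of the 5 Lox genes (median 0.17) and 3 of the 4 Timp genes (median 0.26). The Mmp family was split, with 9 of 17 above 0 and a median of 0.02. Its 3 genes with an unadjusted p under 0.05 were all lower (17.6%, against 6.01% of all genes). These were Mmp11 (-0.31 ± 0.12, adjusted p = 0.283), Mmp21 (-0.21 ± 0.09, adjusted p = 0.306) and Mmp13 (-0.23 ± 0.11, adjusted p = 0.387). Mmp13 and Mmp21 have mean values under 1 and are named after their values were seen. Over all 48 members 33 were above 0 (68.8%, median 0.13), against 50.7% of all genes (median 0.00), and unadjusted p was under 0.05 for 7 higher and 3 lower members, against 6.65% and 6.01% of all genes. Lists of related genes leaned the same way. Above 0 were 18 of 26 other extracellular proteases (median 0.08) and 11 of 14 other protease inhibitors (median 0.13). So were 18 of 21 other collagen-modifying enzymes (median 0.09). Adamts5, the next protein-coding gene to Adamts1 on chromosome 16 and an aggrecanase too, averaged 253 ± 121 in ZT15 RUN and 242 ± 65.6 in ZT15 SED (log2 change -0.06 ± 0.29).

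Both calls at ZT15 changed with the libraries used. Adamts1 missed the threshold without ZT15 RUN replicate 4 (1.08, adjusted p = 0.0553) or 5 (1.01, adjusted p = 0.0658), without the 3 Cd79a-high libraries (0.97, adjusted p = 0.0605) and without the 3 Ucp1-high libraries (1.10, adjusted p = 0.150), a setting in which no gene of the table passed. Adamts4 missed it in 11 of the 24 fits that left out a library: ZT15 RUN replicates 1, 4, 5 or 6, any ZT15 SED library, or ZT3 SED replicate 4. Its change there was 0.86 to 1.11 and the adjusted p 0.0503 to 0.126. It also missed it without the Cd79a-high (1.00, adjusted p = 0.0791) or the Ucp1-high libraries (1.06, adjusted p = 0.194) and with quantile normalization (1.11, adjusted p = 0.0560). Lymphocyte markers moved with the same comparison: 0 of 20 had a log2 change above 0, and their summed value was 72.8 to 191 in ZT15 RUN, against 112.4 to 2091 in ZT15 SED. All 16 skeletal muscle markers were above 0 (sums of 230.2 to 51313 in ZT15 RUN and 71.5 to 46528 in ZT15 SED). With lymphocyte and muscle scores as covariates Adamts1 still passed (0.89, adjusted p = 0.0362) and Adamts4 did not (0.86, adjusted p = 0.0769). All 10 endothelial markers (811 to 1135 in ZT15 RUN, 749 to 949.8 in ZT15 SED), all 10 smooth muscle and pericyte markers (738 to 1313 in ZT15 RUN, 656 to 1278 in ZT15 SED) and all 9 Schwann cell markers (297 to 556 in ZT15 RUN, 245 to 345 in ZT15 SED) were at or above 0 as well, and their part in the result was not tested. Of the fibroblast and preadipocyte markers 11 of 14 were above 0 (median 0.19), and of the adipocyte markers 9 of 10 (median 0.19). The part of these 2 lists was not tested either. All 8 thermogenic adipocyte markers were above 0 too (median 0.43), with sums of 111 to 1790 in ZT15 RUN and 135 to 722 in ZT15 SED, and their part was not tested beyond the fit without the Ucp1-high libraries. That fit also leaves out the 3 libraries of highest Myh4. Among 8 mast cell markers 1 rose, Hdc, the histamine-forming enzyme, with values of 6.10 to 17.0 in ZT15 RUN and 1.89 to 5.47 in ZT15 SED (adjusted p = 0.0170). The other 7 were below 0, and the list median was -0.07.

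**Figure D2:**
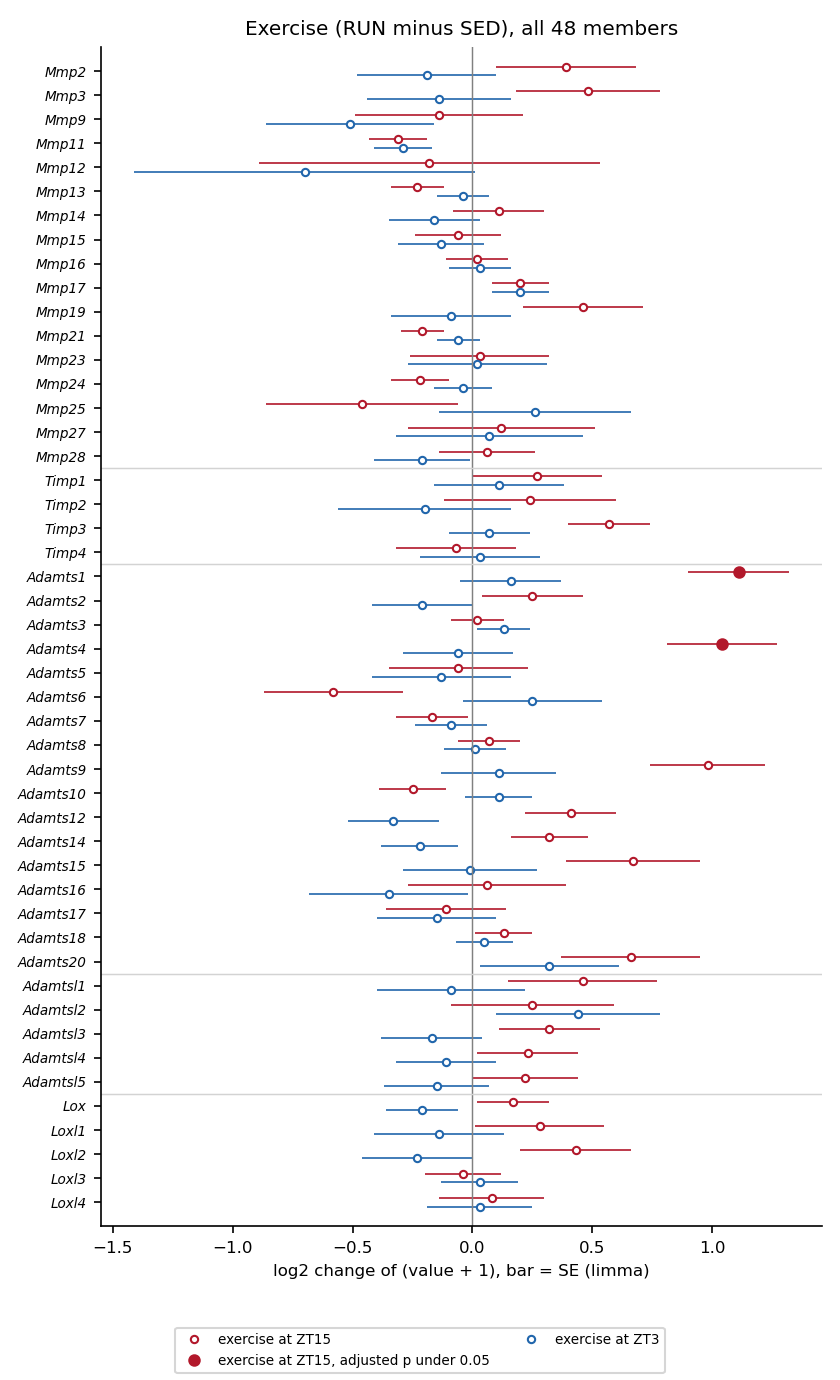
Log2 change with exercise (RUN minus SED, limma on log2 of the value plus 1) of all 48 members at ZT15 and at ZT3, with bars for the SE and filled points for an adjusted p under 0.05. Adamts1 and Adamts4 at ZT15 are the filled points, and the ZT3 changes lie between -0.70 and 0.44.

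At ZT3 exercise left no member past the threshold. No gene of the whole table passed limma there (0%), and 0 members passed with edgeR or DESeq2. An unadjusted p under 0.05 was found for 1 lower and 0 higher members, against 1.12% and 1.15% of all genes, and no member was higher or lower without overlap (0.0493% and 0.0246% of all genes). The member was Mmp11 (stromelysin-3), with 3.80, 4.62 and 5.29 as lowest, median and highest value in ZT3 RUN, against 4.41, 5.45 and 8.07 in ZT3 SED. The groups overlapped widely (log2 change -0.29 ± 0.12, adjusted p = 0.989). Mmp11 was not particular to ZT3: its change with exercise at ZT15 was -0.31 ± 0.12 (adjusted p = 0.283). The difference between the 2 times was -0.02 ± 0.18. Next by p were Adamts12, a protease that cuts cartilage oligomeric matrix protein, at 109.0, 211 and 259 in ZT3 RUN against a median of 241 and a highest value of 297 in ZT3 SED (-0.33 ± 0.19), and the membrane-anchored Mmp17 at 1.59, 2.08 and 2.54 in ZT3 RUN against 1.23, 1.599 and 2.56 in ZT3 SED (0.20 ± 0.12), both with an adjusted p of 0.989. Adamts1 itself was spread over 52.7, 98.9 and 135 in ZT3 RUN, against 68.2, 75.6 and 117 in ZT3 SED (0.16 ± 0.21), and Adamts4 over 6.57, 11.6 and 22.7 in ZT3 RUN, against 11.4, 13.0 and 15.3 in ZT3 SED (-0.06 ± 0.23). Of the 48 members 19 were above 0 (39.6%, median -0.08), against 51.8% of all genes.

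Whether exercise acted differently at the 2 times was tested as an interaction, the ZT15 change minus the ZT3 change. No member and no gene passed with limma (0%), and 0 members passed with edgeR. DESeq2 called 1 of the 48 members, Adamts4 (1.32, adjusted p = 0.0466), where it called 239 of all 16233 genes (28 higher, 211 lower). By limma the difference was 1.10 ± 0.33 for Adamts4, 0.96 ± 0.30 for Adamts1 and 0.74 ± 0.27 for Adamts12, each with an adjusted p of 0.583. An unadjusted p under 0.05 was found for 5 members above 0, all Adamts genes (the others were Adamts9 and Adamts14), and for 0 below 0, against 3.83% and 4.02% of all genes. In all, 35 of 48 members were above 0 (72.9%, median 0.27), against 50.7% of all genes. So were 19 of 26 other extracellular proteases, 12 of 14 other protease inhibitors and 17 of 21 other collagen-modifying enzymes. Markers moved in the same contrast: 0 of 20 lymphocyte markers were above 0 (median -2.57), as against 16 of 16 skeletal muscle (median 1.23), 8 of 8 thermogenic adipocyte (median 0.57) and 12 of 14 fibroblast markers (median 0.34). Lymphocyte sums were 72.8 to 191 in ZT15 RUN, 112.4 to 2091 in ZT15 SED, 88.2 to 3127 in ZT3 RUN and 114.5 to 142 in ZT3 SED. With the lymphocyte and muscle scores as covariates again 0 members passed, and the part of the other lists was not tested. The exercise effect on Adamts1 and Adamts4 is therefore not shown to differ between ZT15 and ZT3 by the limma test.

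Time of day was associated with lower levels of several members in sedentary mice. Adamts4 differed most: its lowest, median and highest values were 2.05, 2.30 and 3.53 in ZT15 SED, against 11.4, 13.0 and 15.3 in ZT3 SED. The 2 groups were far apart, with the highest ZT15 library well under the lowest ZT3 library. Means were 2.53 ± 0.587 in ZT15 SED and 13.1 ± 1.44 in ZT3 SED (SD, n = 6 each), and Adamts4 fell by 2.01 ± 0.23 on the log2 scale (limma adjusted p = 5.876e-05), the fourth smallest p in the table. It passed with every alternative and without any single library (highest adjusted p 0.000953 and 0.000285).

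Another 4 members fell at ZT15 in sedentary mice, each with groups that did not overlap. Mmp14, the membrane-anchored collagenase that activates pro-MMP2, had 29.2, 46.8 and 61.1 in ZT15 SED, against 63.5, 85.7 and 109.9 in ZT3 SED (-0.92 ± 0.19, adjusted p = 0.0118). Loxl2, a lysyl oxidase-like crosslinking enzyme, had 14.5, 39.9 and 42.6 in ZT15 SED, against 58.4, 72.4 and 89.6 in ZT3 SED (-1.10 ± 0.23, adjusted p = 0.0164). In both genes the ZT15 SED library at the bottom was replicate 5, which is also the one of highest Cd79a in that group. Adamts12 had 86.5, 149 and 157 in ZT15 SED, against a median of 241 and a highest value of 297 in ZT3 SED, with every ZT3 library above every ZT15 one (-0.84 ± 0.19, adjusted p = 0.0264). Adamts14, a procollagen N-proteinase that trims fibrillar collagen precursors, had 5.93, 7.00 and 7.49 in ZT15 SED, against 9.87, 11.8 and 13.2 in ZT3 SED (-0.69 ± 0.16, adjusted p = 0.0333).

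Thus 5 of 48 members fell and none rose, where 0.561% of all genes fell, 0.616% rose and 1.18% passed in either direction. Including Mmp9 (gelatinase B) and Adamts1, 7 members were lower without overlap and 0 higher, against 1.31% and 1.20% of all genes. Mmp9, chosen for mention after its values were seen, had 4.84, 11.7 and 13.6 in ZT15 SED, against 18.6, 26.5 and 39.8 in ZT3 SED, and missed the threshold (-1.39 ± 0.35, adjusted p = 0.0537). Adamts1 had 39.9, 55.6 and 63.4 in ZT15 SED, against 68.2, 75.6 and 117 in ZT3 SED (-0.61 ± 0.21, adjusted p = 0.197). An unadjusted p under 0.05 was found for 14 lower members (29.2%), against 6.46% of all genes, and for 4 higher members (8.33%), against 5.66%. In all, 36 of 48 members were below 0 (75.0%, median -0.18), against 46.0% of all genes (median 0.02). Lists of related genes leaned the same way. Below 0 were 22 of 26 other extracellular proteases (median -0.21) and 12 of 14 other protease inhibitors (median -0.19). So were 16 of 21 other collagen-modifying enzymes (median -0.11).

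**Figure D3:**
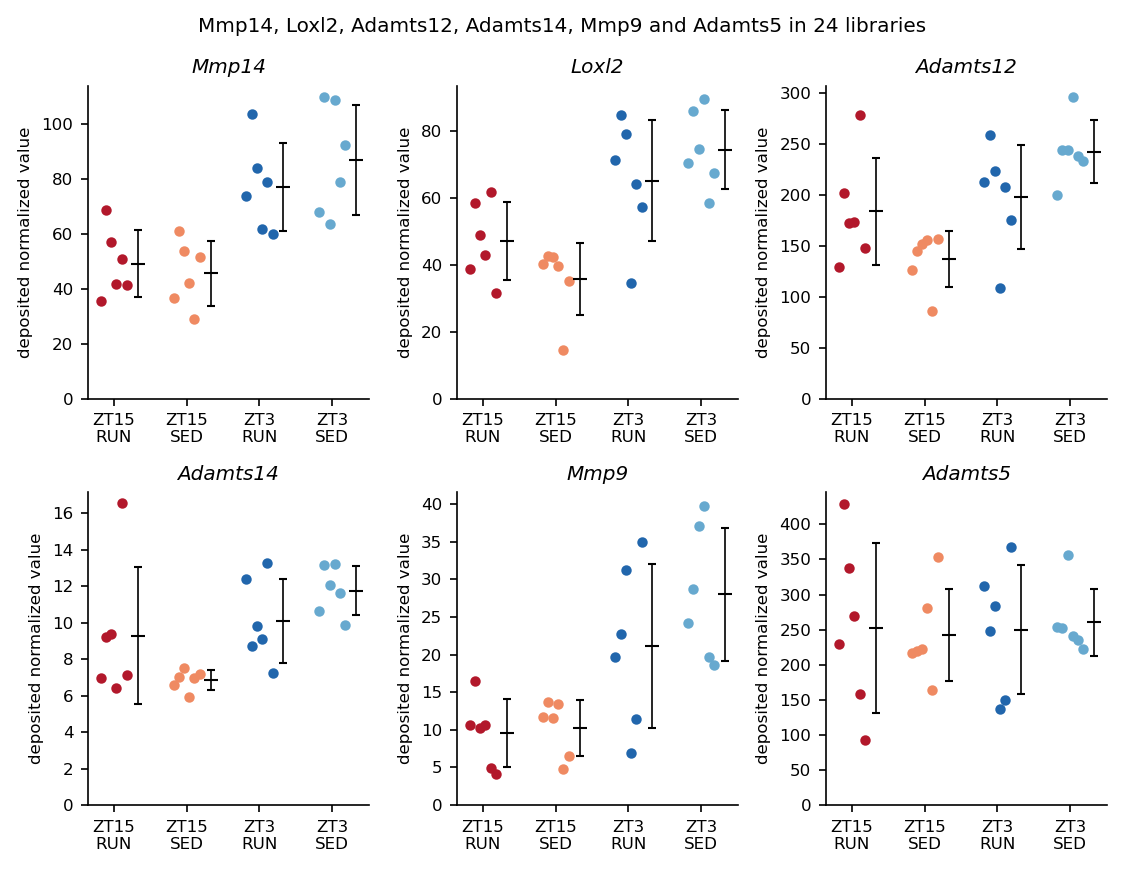
Deposited normalized values (vertical axis) of Mmp14, Loxl2, Adamts12, Adamts14, Mmp9 and Adamts5 in 24 libraries (points) by group, with the group mean and SD (bars). In the first 5 genes all ZT15 SED points lie under all ZT3 SED points, whereas the 4 groups of Adamts5 overlap.

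The direction was shared across families to different degrees. All 5 Lox genes were below 0 (median -0.59): besides Loxl2 these were Loxl1, with means of 50.9 ± 16.6 in ZT15 SED and 77.3 ± 15.3 in ZT3 SED (-0.65 ± 0.27, adjusted p = 0.316), Loxl4 (-0.59 ± 0.22), Loxl3 (-0.32 ± 0.16) and Lox, at 122.5 ± 20.3 in ZT15 SED and 136.2 ± 13.8 in ZT3 SED. Among the 17 Mmp genes 13 were below 0 (median -0.19), among them Mmp2 at 186 ± 74.3 in ZT15 SED and 255 ± 60.1 in ZT3 SED (-0.55 ± 0.29, adjusted p = 0.473) and Mmp3 at 57.3 ± 21.5 in ZT15 SED and 92.2 ± 22.8 in ZT3 SED (-0.74 ± 0.30, adjusted p = 0.295). Among the 17 Adamts genes 12 were below 0 (median -0.13), and Adamts5 averaged 242 ± 65.6 in ZT15 SED and 260.2 ± 48.3 in ZT3 SED. The inhibitors divided, with Timp2 at 261 ± 114 in ZT15 SED and 400.2 ± 101 in ZT3 SED (-0.72 ± 0.36, adjusted p = 0.432) and Timp1 at -0.80 ± 0.27 (adjusted p = 0.174), but Timp3 at 0.38 ± 0.17 (adjusted p = 0.363) and Timp4 at 0.65 ± 0.25 (adjusted p = 0.262). Among Adamtsl genes, several of which bind matrix microfibrils, 4 of 5 were below 0 (median -0.10). Adamtsl1 averaged 33.8 ± 11.8 in ZT15 SED and 53.0 ± 14.3 in ZT3 SED, Adamtsl4 averaged 31.5 ± 8.56 in ZT15 SED and 32.7 ± 2.78 in ZT3 SED, and Adamtsl2 was the exception at 1.13 ± 0.34 (adjusted p = 0.106). Loxl3, Loxl4, Timp1, Timp4 and Adamtsl2 are named after their values were seen.

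Mmp14 and Loxl2 passed without any single library (highest adjusted p 0.0390 and 0.0480), whereas Adamts12 and Adamts14 did not. Adamts12 missed the threshold without ZT15 SED replicate 1 or 5 or ZT3 SED replicate 2, 3 or 4 (up to 0.0809), and Adamts14 without any ZT15 SED library or ZT3 SED replicate 2, 3, 4 or 5 (up to 0.0908). Their changes stayed close to those of the full fit, at -0.89 to -0.71 for Adamts12 and -0.74 to -0.66 for Adamts14 over all 24 such fits. Without the Ucp1-high libraries both missed it (Adamts12 -0.82, adjusted p = 0.0517, and Adamts14 -0.68, adjusted p = 0.0683), as did Adamts14 without the Cd79a-high libraries (-0.73, adjusted p = 0.0598). Markers of other cell types moved in the same comparison. None of 14 fibroblast and preadipocyte markers was above 0 (median -0.47), with sums of 5027 to 13112 in ZT15 SED and 10047 to 13103 in ZT3 SED. Among 11 macrophage markers 1 was above 0 (median -0.55), with sums of 525 to 1767 in ZT15 SED and 1034 to 1819 in ZT3 SED, and the part of either list in the result was not tested. Of 8 mast cell markers 7 were below 0 (median -0.64), and the part of this list was not tested. Of 8 thermogenic adipocyte markers 7 were above 0 (median 0.36). Their part was not tested beyond the fit without the Ucp1-high libraries. All 20 lymphocyte markers were above 0 (median 1.46) and all 16 muscle markers below 0 (median -1.58). With these lymphocyte and muscle scores as covariates the 5 calls remained, with Loxl2 at -0.83 and Mmp14 at -0.83, and without the 3 Cd79a-high libraries Loxl2 was at -0.89 and Mmp14 at -0.84, both past the threshold.

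In exercised mice 2 members passed the test between ZT15 and ZT3. Timp3 rose at ZT15, with 362, 470.1 and 548 as lowest, median and highest value in ZT15 RUN, against 153.8, 257 and 334.5 in ZT3 RUN. The groups did not overlap (means 464 ± 80.0 in ZT15 RUN and 255 ± 68.0 in ZT3 RUN, log2 change 0.89 ± 0.17, adjusted p = 0.00513), and Timp3 passed without any single library (highest adjusted p 0.0176). With only the ZT15 RUN and ZT3 RUN libraries in the fit its adjusted p was 0.0525. Adamts4 fell, with 4.03, 5.74 and 12.1 in ZT15 RUN, against 6.57, 11.6 and 22.7 in ZT3 RUN (-0.91 ± 0.23, adjusted p = 0.0303), and here the groups overlapped. This call was lost without ZT15 RUN replicate 1, 3, 4 or 6 or ZT3 RUN replicate 2 or 5 (adjusted p up to 0.0723), with changes of -1.08 to -0.75 over all 24 such fits. It was also lost with quantile normalization (-0.82, adjusted p = 0.0927), with only these 2 groups in the fit (-0.91, adjusted p = 0.180) and without the Ucp1-high libraries (-0.86, adjusted p = 0.137). Mmp14 had 35.5, 46.3 and 68.7 in ZT15 RUN, against 60.1, 76.5 and 103.6 in ZT3 RUN (-0.65 ± 0.19, adjusted p = 0.0516), and passed without the Cd79a-high libraries (-0.70, adjusted p = 0.0355). Markers moved here too: all 8 thermogenic adipocyte markers (median 1.23; sums of 111 to 1790 in ZT15 RUN and 65.5 to 307 in ZT3 RUN) and all 10 smooth muscle and pericyte markers (median 0.27; 738 to 1313 in ZT15 RUN, 476.5 to 767 in ZT3 RUN) were above 0, and 1 of 11 macrophage markers was (median -0.51; 598 to 2306 in ZT15 RUN, 903 to 2228 in ZT3 RUN). All 10 adipocyte markers (median 0.28) and all 9 Schwann cell markers (median 0.24) were above 0 as well. The part of these lists in the result was not tested. All 20 lymphocyte markers were below 0. Timp3 was at 0.75 (adjusted p = 0.00253) when the lymphocyte and muscle scores were covariates.

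The 2 members that passed, 1 higher and 1 lower of 48, compare with 2.56% of all genes higher and 1.63% lower (4.19% in either direction). An unadjusted p under 0.05 was found for 5 higher and 8 lower members, against 10.7% and 10.0% of all genes, and 1 member was higher and 0 lower without overlap, against 1.50% and 0.764%. Of the 48 members 19 were above 0 (39.6%, median -0.06), against 48.9% of all genes. The members that fell in sedentary mice had these values in exercised mice: Loxl2 -0.44 ± 0.23 (31.5, 45.9 and 61.7 in ZT15 RUN, against 34.5, 67.7 and 84.8 in ZT3 RUN), Adamts12 -0.10 ± 0.19 (129.4, 173 and 279 in ZT15 RUN, against 109.0, 211 and 259 in ZT3 RUN) and Adamts14 -0.15 ± 0.16 (6.43, 8.18 and 16.6 in ZT15 RUN, against 7.245, 9.48 and 13.3 in ZT3 RUN). Their groups overlapped, and the difference between the sedentary and the exercised time effect is the interaction given above, which did not pass for any of them. The comparisons are not independent: exercise at ZT15 and time of day in sedentary mice share the 6 ZT15 SED libraries with opposite sign. The same 6 values of Adamts4 therefore enter both its rise with exercise and its fall at ZT15.

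**Figure D4:**
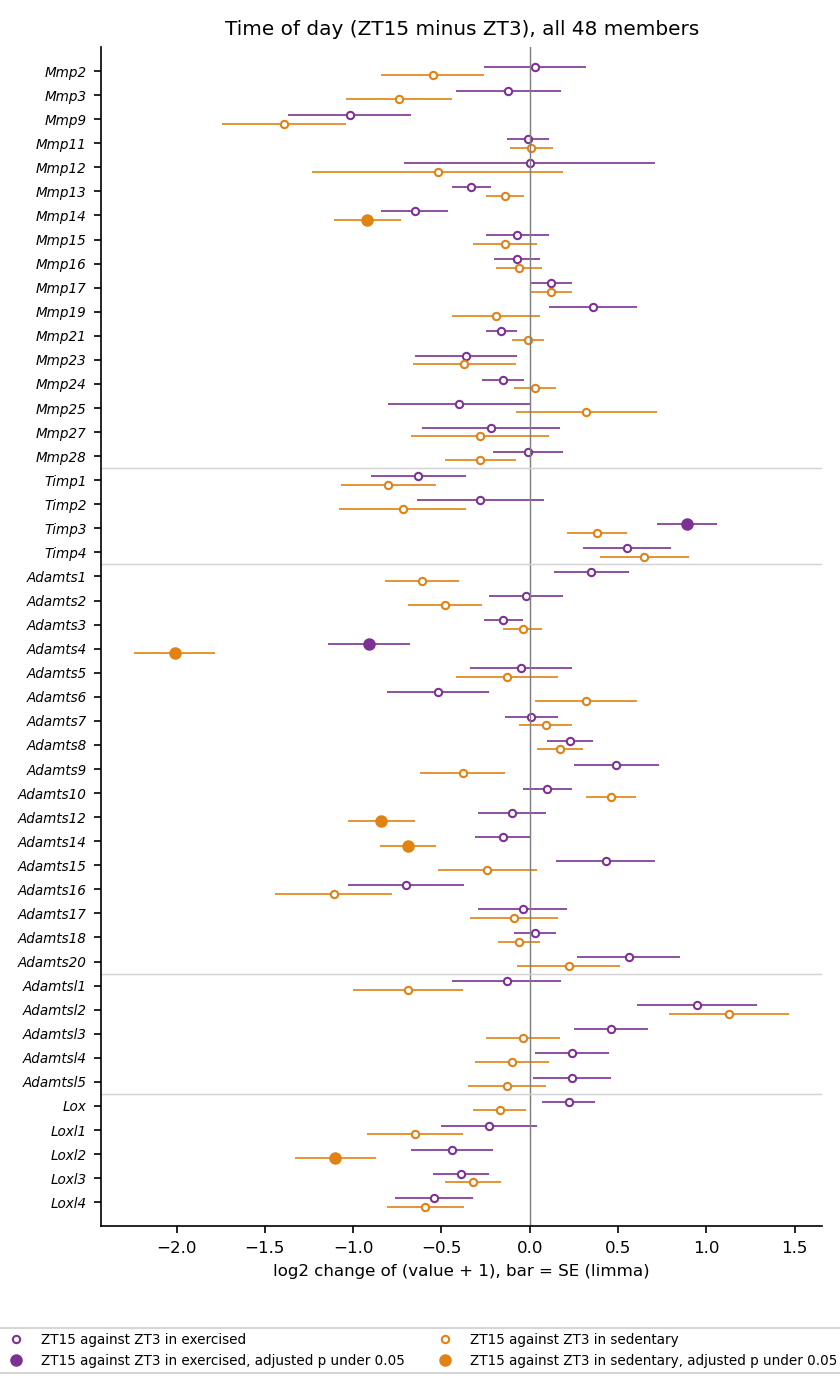
Log2 difference between ZT15 and ZT3 (limma on log2 of the value plus 1) of all 48 members in exercised and in sedentary mice, with bars for the SE and filled points for an adjusted p under 0.05. Filled points in sedentary mice are Mmp14, Adamts4, Adamts12, Adamts14 and Loxl2, all below 0, and in exercised mice Timp3 above 0 and Adamts4 below 0.

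Further members with values not yet given are named here after their values were seen. Mmp19, an interstitial metalloproteinase, was at 208 in ZT15 RUN replicate 5, the library of lowest depth among all 24, against 53.7 to 63.4 in the other 5 ZT15 RUN libraries and 37.4 to 66.6 in ZT15 SED (log2 change 0.46 ± 0.25, adjusted p = 0.461). Mmp12, the macrophage elastase, spread from 0.730 to 26.4 in ZT15 RUN, 2.31 to 36.3 in ZT15 SED, 1.38 to 21.4 in ZT3 RUN and 5.03 to 50.5 in ZT3 SED, and none of its group differences, the largest being -0.70 with exercise at ZT3, was as large as its SE of 0.71 on the log2 scale. Mmp13, collagenase-3, lies next to Mmp12 on chromosome 9 and had the lowest value of any member, at 0.0348 to 0.132 in ZT15 RUN and 0.0680 to 0.706 in ZT15 SED. Adamtsl2, a secreted protein linked to fibrillin microfibrils, was higher at ZT15 than at ZT3 in both arms without passing, at 8.53 ± 5.16 in ZT15 RUN against 3.66 ± 1.96 in ZT3 RUN (0.95 ± 0.34, adjusted p = 0.109) and 6.21 ± 1.497 in ZT15 SED against 2.62 ± 2.25 in ZT3 SED. Timp4, the TIMP known from heart and fat, averaged 117.0 ± 15.6 in ZT15 RUN, 131 ± 56.2 in ZT15 SED, 83.9 ± 30.4 in ZT3 RUN and 80.3 ± 22.4 in ZT3 SED. Among the procollagen N-proteinases, Adamts2 averaged 131.0 ± 29.4 in ZT15 RUN, 113 ± 30.1 in ZT15 SED, 134.0 ± 32.7 in ZT3 RUN and 151 ± 16.6 in ZT3 SED, and its relative Adamts3 had a mean under 1 over all libraries, as had Mmp13, Mmp16, Mmp21, Mmp24, Adamts8 and Adamts18.

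Genes that act with the members were read from lists of related functions. Of 26 substrates of these enzymes 1 rose with exercise at ZT15, Thbs1, a matrix glycoprotein (2.10 ± 0.43, adjusted p = 0.0237), and 23 were above 0, where 0.481% of all genes rose and 50.7% were above 0. In sedentary mice 2 of the 26 were lower at ZT15, Fbn1, the fibrillin of microfibrils (-1.56 ± 0.38, adjusted p = 0.0420), and Col1a1, a chain of type I collagen (-0.93 ± 0.23, adjusted p = 0.0485), with 23 of 26 below 0 and a list median of -0.46, where 0.561% of all genes fell and 46.0% were below 0. Of 21 other collagen-modifying enzymes none passed in these comparisons, and 2 were higher at ZT15 in exercised mice, the lysyl hydroxylase Plod2 (0.68 ± 0.14, adjusted p = 0.00949) and the transglutaminase Tgm2 (0.43 ± 0.12, adjusted p = 0.0472). Of 26 other extracellular proteases 1 passed, the sheddase Adam17, lower at ZT15 in exercised mice (-0.34 ± 0.09, adjusted p = 0.0280). In that comparison 2.56% of all genes were called higher and 1.63% lower. None of 14 other protease inhibitors and none of 16 activators and receptors passed in any comparison. With exercise at ZT3 none of these lists had a gene past the threshold, and 2 of 26 substrates were above 0.

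Mmp25 and Adamts6 stood highest in the same 3 libraries, and are described after their values were seen. Mmp25 encodes a membrane-anchored metalloproteinase known from leukocytes, and Adamts6 an ADAMTS protease linked to fibrillin microfibrils. Mmp25 was at 8.15 in ZT3 RUN replicate 4, 5.12 in ZT15 SED replicate 5 and 2.12 in ZT15 SED replicate 3, the 3 libraries high in Cd79a, against 0.210 to 0.872 in the other 21. Adamts6 was at 32.6, 25.9 and 13.4 in the same 3 libraries, against 5.89 to 11.0 in the others. Adamts1 was lowest in the same 3 libraries, but by a narrow margin. It was at 52.65 in ZT3 RUN replicate 4, 39.9 in ZT15 SED replicate 5 and 48.4 in ZT15 SED replicate 3. The other 21 libraries ran from 52.67, in ZT15 SED replicate 2, to 163. Over the whole ZT15 SED group Adamts1 ranged from 39.9 to 63.4. No other member set these 3 libraries apart from the rest. How many of all genes do so was not counted, so these members cannot be called unusual in this. ZT3 RUN replicate 4 was highest of its group in 36.6% of all genes, ZT15 SED replicate 5 in 31.8% and ZT15 SED replicate 3 in 7.2%. Group differences in Mmp25 and Adamts6 did not pass in any comparison, and the part of lymphoid tissue in their values was not tested.

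**Figure D5:**
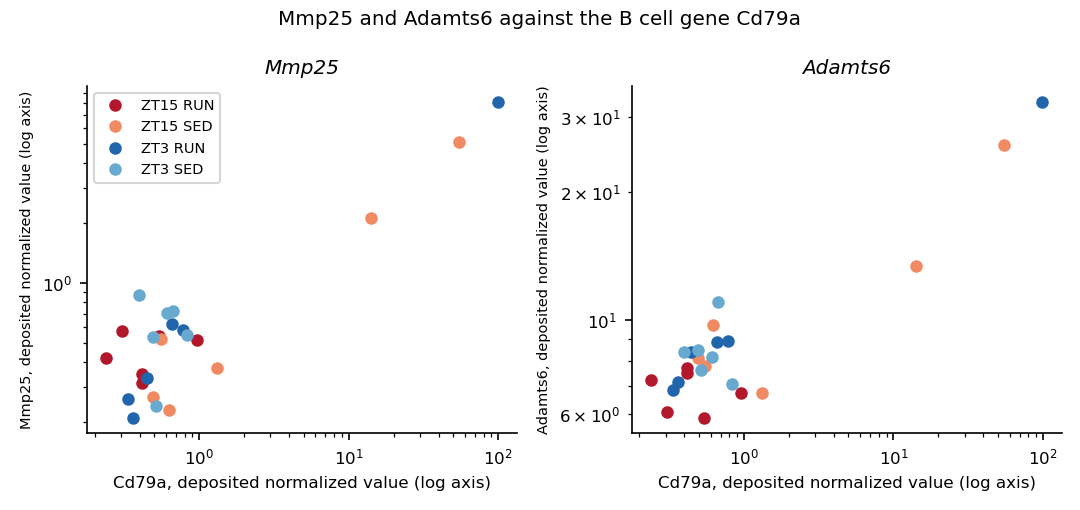
Deposited normalized values of Mmp25 and Adamts6 (vertical, log axis) against Cd79a, a B cell gene (horizontal, log axis), in 24 libraries coloured by group. In both panels the 3 libraries with Cd79a at 14.1 or above, from ZT15 SED and ZT3 RUN, lie above the other 21.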

How the data were processed

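The 24 inguinal fat libraries come from a stranded total RNA kit that depletes ribosomal RNA, per the labels and design text. The deposited table holds a normalized signal for 16233 genes, made by the authors. The names of STAR, featureCounts, Subread 1.6.2 and limma 3.48.3, with no order of use, are given per the submitters' processing notes. Genome build, annotation and strand setting were not given in the sources used here, so reads of overlapping or antisense genes cannot be told apart. In every library 100% of values were whole multiples of 1 read (tolerance 0.01 of a read), so whole reads were recovered, 18.5 M to 34.7 M per library. A chi-square test of the reads over genes was run for the 60 same-group pairs, and its smallest ratio to the degrees of freedom was 23.3, so no library repeats another of its group. Pairs from different groups were not compared.

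Values were tested as log2(value + 1), which understates changes of low genes, with limma 3.58.1 in R 4.3.3 (group-means model over 24 libraries, eBayes with trend), Benjamini-Hochberg adjusted over all 16233 genes, threshold 0.05. All adjusted p-values are from limma unless another tool is named. The 5 comparisons were exercise at ZT15, exercise at ZT3, their difference, and ZT15 against ZT3 in sedentary and in exercised mice. The test script was tested on simulated data. Exon lengths are unions of GENCODE M21 exons, and promoters are from RefSeq GRCm38.p6. Alternatives were edgeR 4.0.16 and DESeq2 1.42.0 on recovered reads, another pseudocount, filter or normalization, fewer groups, a block, covariates and left-out libraries. Leaving out libraries with Ucp1 above 100 was added after seeing the data.

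Members and lists were chosen with earlier results of these data known. Named with values were members past the threshold in any comparison, the 3 of smallest p where fewer than 3 passed, the 2 of highest mean per family, and list genes past the threshold. Replicate numbers are names in record order, with no pairing.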

Additional observations from a re-analysis of the deposited data

Results flagged for a closer look

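Dixon's test marked 7 single libraries among 72 groups of 6 (18 members in 4 groups), where chance marks about 1 in 20 groups. Adamts14 was at 16.58 in ZT15 RUN replicate 5, above 9.38 in the next library of its group, and Adamts4 at 12.13 in the same library, above 6.74. ZT3 SED replicate 3 was highest of its group in Adamts5 at 356, above 253.8, and in Lox at 163.3, above 136.2. ZT15 SED replicate 5 was lowest of its group in Adamtsl4 at 15.04, under 31.58, in Loxl2 at 14.51, under 35.22, and in Timp3 at 209.8, under 308.9. That library is the one of highest Cd79a in its group, and its part in these values was not tested.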

How the results depend on the processing

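The 17 log2 changes recomputed kept their sign in every alternative and without any single library. With exercise at ZT15, 2 members passed in the fit reported, 1 with quantile normalization or with lymphocyte and muscle scores as covariates (Adamts1 both times), 4 with DESeq2 (Adamts1, Adamts4, Adamts9 and Timp3), and 0 without the Cd79a-high or without the Ucp1-high libraries. Leaving out 1 library gave 0 to 3, with 0 without ZT15 RUN replicate 4 or 5. At ZT3 the count was 0 in every alternative. The interaction count of 0 became 1 with DESeq2 and was 0 in every fit without a library. For ZT15 against ZT3 in sedentary mice, 5 members became 9 with a replicate block of title numbers and 3 without the Ucp1-high libraries (Adamts4, Mmp14 and Loxl2), and ranged from 3 to 7 without a single library. In exercised mice 2 members became 1 with quantile normalization, 5 with DESeq2, 0 with only the groups compared, 4 with the replicate block, 5 without the Cd79a-high libraries, 5 with covariates and 1 without the Ucp1-high libraries, and ranged from 1 to 4 without a single library. The labels do not say what title numbers mean, so the block is no shown pairing. A fit of only the groups compared could not be applied to the interaction. The cause of these shifts was not tested. Over all 16233 genes, exercise at ZT15 gave 104 calls (78 higher, 26 lower), against 561 with DESeq2, 120 with covariates, 22 without the Cd79a-high libraries, 0 without the Ucp1-high libraries, 72 with quantile normalization (67 higher, 5 lower) and 16 to 293 without a single library. The interaction gave 0 and 239 with DESeq2. Time in sedentary mice gave 191, against 548 with DESeq2, 543 with covariates, 287 with the block, 142 without the Ucp1-high libraries and 130 to 388 without a single library. Time in exercised mice gave 680, against 1590 with DESeq2, 1056 with covariates, 762 with the block, 666 without the Cd79a-high libraries, 426 with quantile normalization, 218 without the Ucp1-high libraries, 109 with only the groups compared and 330 to 1004 without a single library. Depth limits the 7 members with a mean value under 1, where 1 read is worth up to 0.0601.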
